A study of Mus musculus with 9 samples.

Results

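Loss and persistence of trimethylation of histone H3 at lysine 4 (H3K4me3) at PRDM9 sites were compared between spermatocytes of wild-type C57BL/6J mice (genotype PRDM9-WT) and of mice homozygous for the EK allele (genotype PRDM9-EK/EK, strain C57BL/6J-Prdm9<em3Kpgn>/Kpgn). The EK allele exchanges glutamate 360 of PRDM9 for lysine, and the labels class it as a severe catalytic hypomorph. All cells came from mice 14 days after birth. The comparison used 4 of the 9 chromatin immunoprecipitation sequencing (ChIP-seq) libraries of the series, 2 per genotype. Both wild-type libraries and 1 of the 2 EK libraries had been published before and were re-analysed, and the other EK library was new. The wild-type list was carried over from an earlier series of the authors. There was 1 peak list per genotype, treated here as pooled over its libraries, so no value below has an error between replicates and no test between genotypes was possible. Whether EK peaks were called on merged or separate libraries is not given in the sources used here, so a kept peak may have been detected in both EK libraries together or in either. The origin of the libraries and the genotype cannot be told apart. The deposited description calls the EK libraries biological replicates. The number of mice per library and the way the spermatocytes were collected are not given in the sources used here, and the lists hold no expression values, so the cell type label was not checked against marker genes.

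The members were the 18427 peaks of the wild-type H3K4me3 list, and a wild-type peak was called kept if any of the 3307 EK peaks overlapped it by 1 bp or more. Both lists are limited to sites already known to carry PRDM9-dependent H3K4me3, and give each peak as an mm10 interval. Peak width was therefore the only measure of size, and the read depth behind a peak is unknown. Shares are given with 95% Wilson intervals, which cover the sampling of peaks and nothing else. Peaks share their 2 libraries and are not replicates.

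PRDM9 is a zinc finger protein of early meiosis that binds specific DNA motifs and methylates H3K4 and H3K36 on the flanking nucleosomes through its PR/SET domain. The marked sites become the places where the SPO11 complex can make the DNA double-strand breaks that start recombination. Gene promoters carry H3K4me3 as well, placed by the SET1 and MLL families of methyltransferases, and in mice that lack PRDM9 breaks move largely to such promoter-like sites. Where a PRDM9 site lies relative to genes and their start sites is for this reason a basic part of its genomic context.

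The sequences shown are RefSeq promoter windows (GRCm38.p6, which shares its chromosome coordinates with mm10), each from 250 bases before to 50 bases after a start site of a protein-coding gene that lay inside a wild-type peak. They are printed because nearness to a protein-coding start was the context with the highest kept share. Capitals mark CpG dinucleotides, which are frequent at the promoters of broadly active genes. The windows at the 5 widest kept peaks with a protein-coding start inside were Rgs19 chr2:181691768-181692067 (minus strand), Gm31493 chr1:160025714-160026013 (minus strand), Dennd1b chr1:138967471-138967770 (plus strand), Akt2 chr7:27605547-27605846 (plus strand) and Spata13 chr14:60732654-60732953 (plus strand):
Rgs19: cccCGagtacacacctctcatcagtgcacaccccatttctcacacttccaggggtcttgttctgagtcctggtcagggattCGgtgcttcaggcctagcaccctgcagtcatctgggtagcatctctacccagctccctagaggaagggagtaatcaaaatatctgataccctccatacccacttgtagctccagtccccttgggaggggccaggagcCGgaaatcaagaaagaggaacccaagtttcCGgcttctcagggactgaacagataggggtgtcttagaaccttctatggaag
Gm31493: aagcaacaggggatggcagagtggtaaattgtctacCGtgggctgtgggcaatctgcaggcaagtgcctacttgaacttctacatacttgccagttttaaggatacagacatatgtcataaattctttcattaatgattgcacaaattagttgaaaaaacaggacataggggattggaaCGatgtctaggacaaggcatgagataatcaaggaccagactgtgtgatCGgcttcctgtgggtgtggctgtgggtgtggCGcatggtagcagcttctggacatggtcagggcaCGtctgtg
Dennd1b: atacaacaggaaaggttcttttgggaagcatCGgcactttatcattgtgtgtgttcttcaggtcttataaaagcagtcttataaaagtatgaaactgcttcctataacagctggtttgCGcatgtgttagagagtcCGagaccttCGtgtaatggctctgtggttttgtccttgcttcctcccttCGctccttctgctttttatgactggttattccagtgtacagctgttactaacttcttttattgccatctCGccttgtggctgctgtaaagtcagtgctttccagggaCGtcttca
Akt2: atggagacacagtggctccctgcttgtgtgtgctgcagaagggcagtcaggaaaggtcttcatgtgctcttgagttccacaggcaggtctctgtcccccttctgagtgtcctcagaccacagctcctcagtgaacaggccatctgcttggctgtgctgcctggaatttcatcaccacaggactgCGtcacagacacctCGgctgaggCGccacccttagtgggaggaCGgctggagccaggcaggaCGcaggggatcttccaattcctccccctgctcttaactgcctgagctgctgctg
Spata13: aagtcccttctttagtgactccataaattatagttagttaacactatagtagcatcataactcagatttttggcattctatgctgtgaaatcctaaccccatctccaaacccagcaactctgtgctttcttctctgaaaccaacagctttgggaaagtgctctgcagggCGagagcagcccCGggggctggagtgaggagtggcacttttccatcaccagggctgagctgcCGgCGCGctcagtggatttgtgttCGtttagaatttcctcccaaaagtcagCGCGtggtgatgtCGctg
The windows at the 3 widest lost peaks with a protein-coding start inside were Zbtb46 chr2:181424339-181424638 (minus strand), D130037M23Rik chr13:103912516-103912815 (plus strand) and Trpv3 chr11:73267270-73267569 (plus strand):
Zbtb46: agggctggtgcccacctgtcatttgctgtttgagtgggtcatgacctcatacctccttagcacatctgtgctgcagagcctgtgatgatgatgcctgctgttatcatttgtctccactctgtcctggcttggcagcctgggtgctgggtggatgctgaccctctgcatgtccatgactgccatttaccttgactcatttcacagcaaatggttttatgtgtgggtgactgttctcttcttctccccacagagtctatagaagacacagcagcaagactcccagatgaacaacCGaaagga
D130037M23Rik: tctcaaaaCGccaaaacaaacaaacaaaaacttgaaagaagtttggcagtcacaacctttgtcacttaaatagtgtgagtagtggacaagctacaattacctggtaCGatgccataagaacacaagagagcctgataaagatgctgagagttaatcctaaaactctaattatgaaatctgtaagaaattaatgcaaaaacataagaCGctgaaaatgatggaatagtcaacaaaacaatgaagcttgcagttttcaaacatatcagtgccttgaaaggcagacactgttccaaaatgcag
Trpv3: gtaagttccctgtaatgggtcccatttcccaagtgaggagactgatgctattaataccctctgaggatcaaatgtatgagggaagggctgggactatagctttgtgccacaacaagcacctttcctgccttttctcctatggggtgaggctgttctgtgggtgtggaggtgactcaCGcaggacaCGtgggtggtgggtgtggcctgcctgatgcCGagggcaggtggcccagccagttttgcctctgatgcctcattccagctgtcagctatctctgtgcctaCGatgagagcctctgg
The 5 kept windows held 4, 5, 7, 5 and 9 CpG dinucleotides in the order printed, and the 3 lost windows held 1, 3 and 4. All of these counts are below 13, the median over all protein-coding start windows. Kept and lost windows shared only the count of 4, and these few windows were picked by peak width. The ratio of observed to expected CpG was 0.497 at Dennd1b and 0.5 at Spata13, near the median of 0.567 over all protein-coding start windows.

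EK kept 3262 of the 18427 wild-type peaks, or 17.7% (17.2 to 18.3%), and lost 15165, or 82.3%. This 17.7% is the background for every kept share counted over wild-type peaks below. Kept peaks covered 3.51 Mb of the wild-type list's 22.6 Mb, and the EK peaks matched to them overlapped 2.26 Mb. Nearly all matches were between 1 peak of each list. There were 18 wild-type peaks with 2 EK peaks each, and 13 EK peaks that spanned 2 wild-type peaks. 

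The kept share varied steeply with width. With the wild-type peaks in 10 bins of near-equal number from narrow to wide, it was 55.5% (53.2 to 57.7%) in bin 1 (116 to 634 bp), 31.7% in bin 2 and 22.7% in bin 3. It was lowest in bin 8 (1436 to 1637 bp), with 79 of 1848 peaks kept (4.27%, 3.44 to 5.30%). In bin 10, the widest (1947 to 5524 bp), it was 27.2% (25.2 to 29.3%, 502 of 1844). Narrow and very wide peaks were thus kept more often than those between. When both lists were limited to peaks no narrower than the list's median, the kept share was 7.87%. This setting is called wide peaks below. A wide wild-type peak whose only EK match was narrower than the EK median (664 bp) counts as lost in it. Shares below that are called standardised give every class of peaks the width make-up of the whole wild-type list.

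Every chromosome from 1 to 19 and the X lost most of its peaks, and the kept share differed little among them. It ran from 14.6% on chromosome 18 (94 of 643 peaks, 12.1 to 17.6%) to 21.0% on chromosome 10 (193 of 917, 18.5 to 23.8%). Chromosome 8 (197 of 942, 20.9%, 18.4 to 23.6%) and chromosome 4 (212 of 1028, 20.6%, 18.3 to 23.2%) were close to the highest. For 16 of the 20 chromosomes the interval held the overall 17.7%. The exceptions were chromosomes 4, 8 and 10 above it and chromosome 18 below it. Beyond 5 kb of a protein-coding start, chromosome 4 kept 17.8% (15.5 to 20.4%), and that interval held the 15.8% of all such peaks. The intervals of chromosomes 8 (16.8 to 22.0%) and 10 (16.3 to 21.6%) stayed above it. Next to the lowest were chromosome 12 at 15.3% (12.995 to 17.9%) and chromosome 16 at 15.9% (13.5 to 18.7%), and their intervals overlapped that of chromosome 18. Neighbours in this order did not stand apart, and the gap of 6.43 percentage points (2.56 to 10.2) between the ends compares 2 chromosomes picked as extremes.

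The largest wild-type counts were on chromosome 2, with 1524 peaks and 265 kept (17.4%, 15.6 to 19.4%), and on chromosome 1, with 1372 peaks and 222 kept (16.2%, 14.3 to 18.2%). The X chromosome, which has no full partner to pair with in male meiosis, kept 104 of 622 peaks (16.7%, 14.0 to 19.9%), against 17.7% on the autosomes. It carried the fewest kept peaks per length, 0.609 per Mb against 1.04 to 1.52 per Mb on the autosomes, as it also did in wild type (3.64 peaks per Mb). The Y chromosome kept 0 of 8 peaks, which allows a share of up to 37.5% by the limit of 3 counts of the total (the Wilson interval ends at 32.4%), and is left out of the chromosome comparisons. On each of the 20 chromosomes the kept peaks were narrower than the lost ones by their medians. These medians were 717 to 852 bp for kept and 1118 to 1236.5 bp for lost peaks, and the ranges do not overlap.

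Standardising each chromosome to the widths of all wild-type peaks changed the order in part. Chromosome 10 went from 21.0% to 19.4%, behind chromosomes 8 and 4, and chromosome 19 from 17.6% to 16.6%. The shares then ran from 14.7% on chromosome 18 to 20.9% on chromosome 8. Across the 20 chromosomes the kept share had a Pearson correlation of -0.34 with median wild-type width, 0.18 with protein-coding genes per Mb and 0.016 with wild-type peaks per Mb. These are descriptions over chromosomes whose peaks come from the same libraries.

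**Figure D1:**
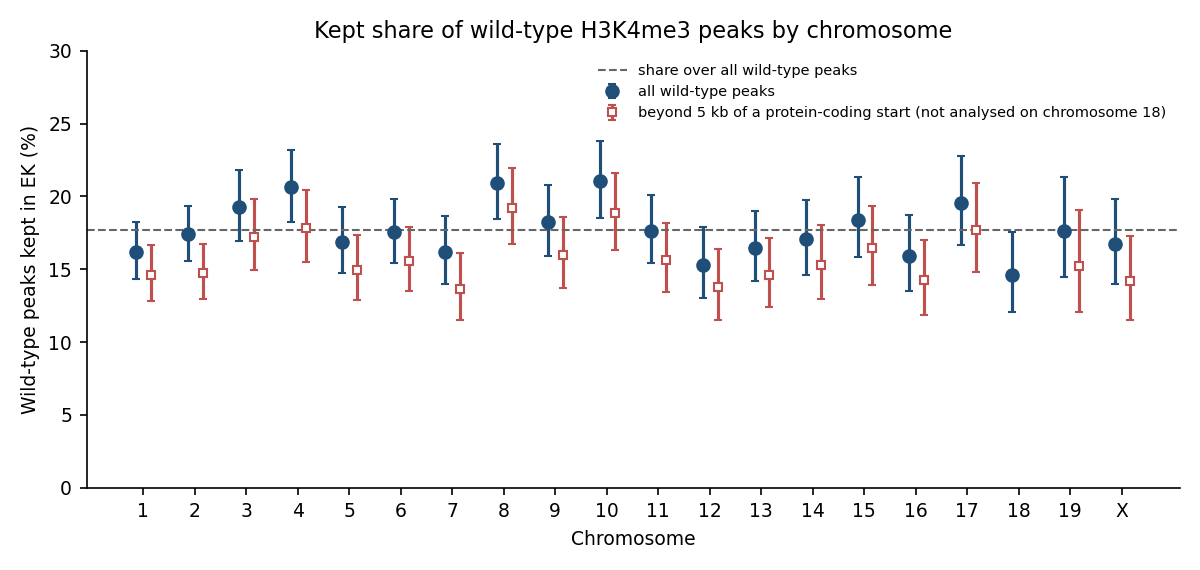
Share of wild-type H3K4me3 peaks kept in EK (percent, vertical axis) on each chromosome, with 95% Wilson intervals, for all peaks (filled circles) and for peaks beyond 5 kb of a protein-coding start (open squares). All chromosomes lie between 14.6% and 21.0% for all peaks, around the dashed line at 17.7%.

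Along the autosomes, which in the mouse have the centromere at one end, the kept share had no steep gradient. In 10 bins of equal length from the centromere end it lay between 15.6% (14.0 to 17.3%, bin 4) and 19.3% (17.6 to 21.2%, bin 5). The first 10 Mb with peaks kept 200 of 1264 (15.8%, 13.9 to 17.9%), a difference of -2.07 percentage points from the rest (-4.07 to 0.124). The last 10 Mb kept 262 of 1378 (19.0%, 17.0 to 21.2%), which was 1.37 points above the rest (-0.696 to 3.61). Both intervals of the difference include 0. At the centromere end the interval excluded 0 among wide peaks (-3.55, -5.07 to -1.49) and with a window of 5 Mb (-3.06, -5.66 to -0.0478), and with 20 Mb the difference was -1.22 (-2.78 to 0.426). At the other end the difference was 0.765 points with 5 Mb (-1.94 to 3.78), 0.830 with 20 Mb (-0.691 to 2.42) and 0.885 among wide peaks (-1.16 to 3.42).

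Finer windows varied more. In 263 windows of 10 Mb with at least 20 wild-type peaks (median 68), the kept share had a median of 17.1% and quartiles of 13.5 and 20.8%. The interval held the overall share in 233 windows (88.6%), lay above it in 17 and below it in 13. The window with the highest share was on chromosome 4 from 130 to 140 Mb, where 40 of 89 peaks were kept (44.9%, 35.0 to 55.3%), and 27 of the 73 peaks there that lay beyond 5 kb of a protein-coding start were kept (37.0%). The lowest, on chromosome 4 from 20 to 30 Mb, kept 1 of 37 (2.70%, 0.479 to 13.8%). Both ends of the range thus lie on the same chromosome.

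A wild-type peak was somewhat more often kept where the one before it was kept, although most kept peaks were followed by a lost one. The next wild-type peak along the chromosome was kept after 743 of 3256 kept peaks (22.8%, 21.4 to 24.3%) and after 2518 of 15143 lost peaks (16.6%, 16.04 to 17.2%). Among peaks beyond 5 kb of a protein-coding start the shares were 20.9% (19.4 to 22.5%) and 14.8% (14.2 to 15.4%). Closely spaced peaks count as separate neighbours here, and these shares were neither standardised for width nor repeated with close peaks merged. The longest unbroken run of kept peaks was 6, found on chromosomes 4 and 10. Runs of lost peaks were far longer, up to 46 peaks over 11.2 Mb on chromosome 14 (chr14:105667570-116859957) and 44 peaks over 8.81 Mb on chromosome 8 (chr8:47680040-56489640). On the X, 14.7 Mb separated a neighbouring pair of kept peaks.

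Crowding of sites had a small association with keeping. Peaks with another wild-type peak within 10 kb were kept at 18.8% (17.5 to 20.1%, 640 of 3405) and the others at 17.5% (16.9 to 18.1%, 2622 of 15022), a difference of 1.34 points (-0.0758 to 2.82). It was 0.302 points when standardised for width and 0.549 points among wide peaks (-1.19 to 2.61). It was 2.73 points with a neighbour limit of 5 kb (0.930 to 4.64), 1.30 points with one of 50 kb (0.186 to 2.41) and 1.83 points beyond 5 kb of a start (0.355 to 3.37), and these 3 intervals exclude 0. At gaps of up to 1 kb the share was 23.4% (20.2 to 26.9%, 143 of 612), and at gaps over 200 kb it was 14.1% (12.2 to 16.3%, 156 of 1103). The closely spaced peaks were also narrow, with a median of 911 bp against 1126 bp for the whole list, and standardised for width their share was 20.8%.

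The contrast by gene context was largest near start sites. Of the wild-type peaks, 53.9% overlapped the span of a protein-coding gene and 38.1% lay outside every annotated gene. Within protein-coding spans 1869 of 9937 peaks were kept (18.8%, 18.1 to 19.6%), within genes of other biotypes 284 of 1473 (19.3%, 17.3 to 21.4%), and outside genes 1109 of 7017 (15.8%, 14.97 to 16.7%). The difference between protein-coding spans and the space outside genes was 3.004 points (1.85 to 4.15). Without peaks within 5 kb of a protein-coding start, a setting chosen after the values were seen, the shares were 15.8% and 15.1%, a difference of 0.631 points (-0.545 to 1.80). With both lists limited to wide peaks the sign was opposite, at -0.189 points (-1.37 to 0.959), but narrow EK matches count as lost there. By wild-type width alone, in 5 classes from narrow to wide, protein-coding spans kept 46.3, 20.2, 8.80, 4.84 and 14.0%. Outside genes the shares were 39.3, 13.7, 5.05, 3.92 and 18.2%, so the order turned in the widest class only.

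Start sites were known for 17491 of 21883 protein-coding genes (79.9%) and for none on chromosome 18, whose 643 peaks are left out here, so some peaks counted as distant may lie near a start that was not used. Few wild-type peaks were near starts. A start lay inside 58 of 17784 peaks, and 1494 (8.40%, 8.002 to 8.82%) were within 5 kb. Near starts the kept share was higher, at 40.2% within 5 kb against 15.8% beyond it (32.4 and 16.1% standardised for width). It was 39.7% with a start inside the peak (23 of 58, 28.1 to 52.5%), 50.3% at gaps under 1 kb (75 of 149, 42.4 to 58.3%) and 39.1% from 1 to 5 kb (503 of 1287, 36.5 to 41.8%). Standardised for width these shares were 39.3, 32.3 and 31.8%. The plain share was 17.8% from 5 to 20 kb (561 of 3159, 16.5 to 19.1%), 17.2% from 20 to 100 kb (1066 of 6189, 16.3 to 18.2%) and 13.5% beyond 100 kb (940 of 6942, 12.8 to 14.4%). Peaks within 1 kb or with the start inside exceeded all others by 29.9 points (23.2 to 36.7). Standardised for width the difference was 17.9 points. The peaks near starts were narrower (median 938 bp against 1129 bp). With both lists limited to wide peaks the difference was 3.34 points (-2.14 to 12.8), but narrow EK matches count as lost there. It is therefore not the contrast by wild-type width alone, which is given below for 5 kb. Counting starts of long non-coding genes too, the difference was 20.3 points.

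The side of the start made a difference too. From 1 to 3 kb downstream of the nearest start, that is on the transcribed side, 272 of 455 peaks were kept (59.8%, 55.2 to 64.2%), against 96 of 297 at the same distance upstream (32.3%, 27.3 to 37.8%). The highest share of any distance class was 66.0% from 1 to 2 kb downstream (161 of 244, 59.8 to 71.6%), where wild-type peaks were narrow at a median of 707.5 bp. Standardised for width it was 50.1%, against 33.2% on the upstream side. From 2 to 3 kb the shares were 52.6% downstream and 21.3% upstream, or 38.3 and 22.2% standardised for width. In the other distance classes the intervals of the sides overlapped. Under 1 kb the shares were 58.3% downstream (45.7 to 69.9%) and 44.9% upstream (35.0 to 55.3%), or 36.3 and 29.0% standardised for width. From 3 to 5 kb they were 28.5% (23.9 to 33.7%) and 20.4% (15.5 to 26.2%). From 5 to 10 kb they were 21.2 and 17.2%, and from 10 to 20 kb 17.1 and 16.1%. From 20 to 50 kb the upstream share was the higher, at 19.2% (17.2 to 21.4%) against 16.1% (14.6 to 17.7%).

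**Figure D2:**
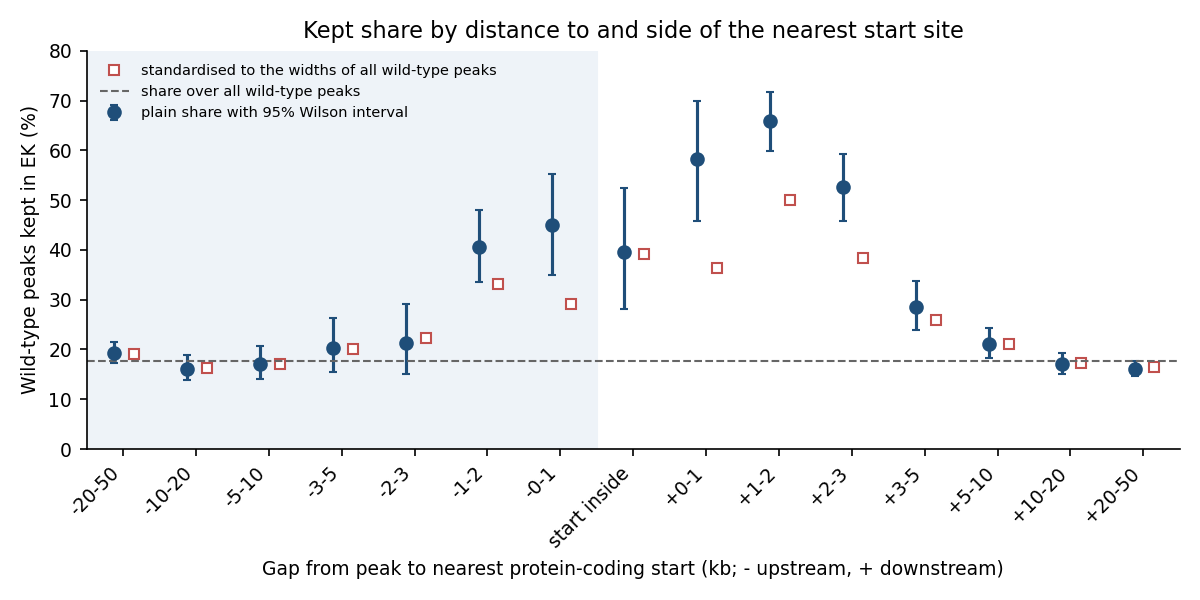
Share of wild-type peaks kept in EK (percent) by the gap in kb from the peak to the nearest protein-coding start, upstream to the left and downstream to the right. Circles carry 95% Wilson intervals, open squares are standardised for width, and the highest circle is 66.0% at 1 to 2 kb downstream.

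Peaks within 5 kb of a start made up 19.0% of the kept peaks (601 of 3168) and 6.11% of the lost peaks (893 of 14616). The pattern held on every chromosome with start sites: the kept share within 5 kb was 31.0 to 56.8%, that beyond 5 kb 13.7 to 19.2%, and the Wilson intervals of near and distant peaks did not overlap on any of the 19. It also ran through most widths. In the narrowest of 5 width classes (116 to 768 bp), 377 of 507 near peaks were kept (74.4%, 70.4 to 78.0%) against 1184 of 3044 distant ones (38.9%, 37.2 to 40.6%). In class 4 (1273 to 1637 bp) the shares were 10.9% (7.50 to 15.6%) and 3.84% (3.24 to 4.55%). In the widest class (1638 to 5524 bp) they were 19.1% (14.51 to 24.8%) and 15.8% (14.6 to 17.1%), with overlapping intervals. How much of the mark near starts is placed by PRDM9 was not tested.

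**Figure D3:**
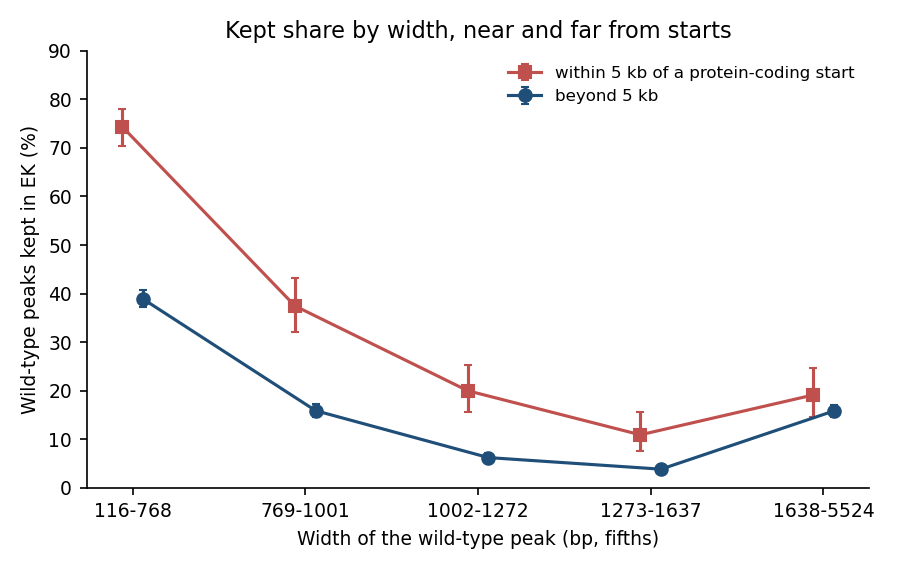
Share of wild-type peaks kept in EK (percent, with 95% Wilson intervals) in 5 classes of wild-type width in bp, within 5 kb of a protein-coding start (squares) and beyond (circles). Near peaks lie above distant ones in each class, at 74.4% against 38.9% in the narrowest, and the intervals overlap in the widest class only.

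By their medians, the protein-coding start windows inside peaks were poorer in CpG than protein-coding start windows at large. The lists were limited beforehand to PRDM9-dependent sites. Over all 21262 protein-coding windows the median ratio of observed to expected CpG was 0.567, while it was 0.194 for the 23 windows in kept peaks (quartiles 0.103 and 0.284) and 0.205 for the 35 in lost peaks (0.101 and 0.316). Kept and lost windows also had near-equal GC content, with medians of 48.7 and 48.3%, against 56.3% over all windows. The start lay inside the EK peak in 21 of the 23 kept cases. Long non-coding starts alone lay inside another 94 peaks, of which 21 were kept (22.3%, 15.1 to 31.8%). For long non-coding windows the median CpG ratio was 0.281 in kept peaks, 0.169 in lost peaks and 0.245 over all.

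Among the kept peaks with a protein-coding start inside, the widest was at Rgs19 (gene identifier 56470), which encodes a GTPase-activating protein of heterotrimeric G proteins. Its wild-type interval of 2568 bp was matched by an EK interval of 570 bp at one end, which did not include the start. At Dennd1b (329260), an exchange factor for a Rab GTPase, 762 of 1873 bp remained, and at the predicted gene Gm31493 (102633740) 763 of 2107 bp, both over the start. Akt2 (11652), a kinase of insulin signalling, had 1074 bp in EK against 1552 bp in wild type. Spata13 (219140) had 766 against 1209 bp. The widest lost peaks with a protein-coding start inside were at Zbtb46 (72147), a transcription factor of classical dendritic cells, with 2537 bp, at D130037M23Rik (328330) with 2277 bp, and at Trpv3 (246788), a heat-gated channel of keratinocytes, with 2137 bp. The widths of kept and lost start-site peaks thus overlap. Over all 58 such peaks the kept ones were narrower, with a median of 831 bp against 1316 bp for the lost ones.

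Where a peak was kept, its EK interval most often lay inside the wild-type one. That was so for 1839 of 3262 kept peaks (56.4%), while both borders were identical in 525 (16.1%), the EK interval contained the wild-type one in 659 (20.2%) and it overhung one side in 239 (7.33%). Exactly 1 border was identical in 1763 kept peaks (54.0%), all of them counted here as inside or containing. Most pairs thus shared a border to the base, and how these shared borders arose was not tested. The median ratio of EK to wild-type width was 0.875 (95% interval of the median 0.845 to 0.896, quartiles 0.483 and 1.00). Among wide peaks the ratio was 0.498. Midpoints were shifted by a median of 46.5 bp. The ratio was close to 1 for narrow peaks and declined with width, to 0.446 in bin 10, where 98.8% of the EK intervals lay inside. No kept peak had both borders identical there, and 4.38% had exactly 1 identical. Both borders were identical most often in bin 1 (24.9% of 1021), where another 66.2% had exactly 1 identical.

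Context moved with this measure as well. Inside protein-coding spans the median ratio was 0.914 (0.881 to 0.936) and 19.9% of the kept peaks had both borders identical. Outside genes the ratio was 0.757 (0.683 to 0.844) and 10.5% were identical, at nearly the same wild-type median width (781 and 773 bp). Beyond 5 kb of a start the ratios were 0.877 in protein-coding spans and 0.800 outside genes. At all distances, the ratios in protein-coding spans were 1, 0.970, 0.792, 0.593 and 0.448 from the narrowest of 5 width classes to the widest. Outside genes they were 1, 0.934, 0.639, 0.496 and 0.461, so the order turned in the widest class. Within 5 kb of a start the ratio was 0.954 (0.894 to 1.00) with 26.0% identical, and beyond it 0.857 (0.822 to 0.888) with 13.9%. The near kept peaks were narrower, with a median of 668 against 798 bp, and within classes of equal width the order was not the same. From the narrowest of the 5 width classes to the widest, the median ratio near starts was 1, 0.844, 0.665, 0.469 and 0.449, and that of distant peaks 1, 0.968, 0.755, 0.572 and 0.455. By chromosome the median ratio ran from 0.739 on chromosome 6 (0.651 to 0.888) to 0.968 on chromosome 10 (0.874 to 1.00), and these intervals overlap. On the X it was 0.745 (0.599 to 0.977).

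**Figure D4:**
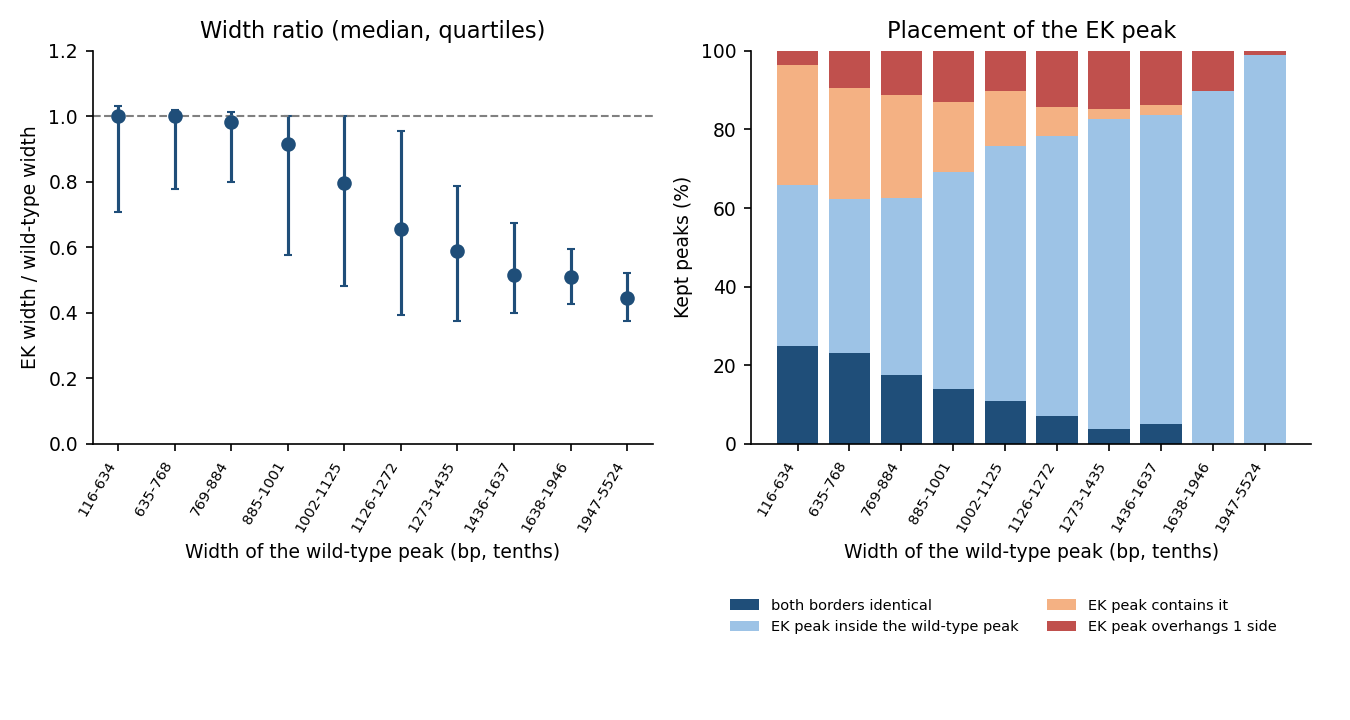
Left, ratio of EK to wild-type peak width at kept peaks (points are medians, bars reach the quartiles) in 10 bins of wild-type width in bp. Right, placement of the EK interval relative to the wild-type interval (percent of kept peaks): intervals inside the wild-type peak make up 98.8% in the widest bin.

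Of the 8 widest kept peaks, 7 lay in protein-coding genes, as did all 8 of the widest lost peaks. The widest was in Capzb (12345), a subunit of the actin capping protein, at chr4:139204946-139210032, with 5087 bp in wild type and 2219 bp in EK. Trip12 (14897), a ubiquitin ligase, followed at chr1:84803439-84808423 with 4985 and 3196 bp, the largest EK interval of the list. Myt1 (17932), a zinc finger factor of neural cells, had 4918 and 1501 bp at chr2:181808678-181813595. Tanc2 (77097), a scaffold protein of synapses, had 4716 and 1330 bp at chr11:105864481-105869196. Ttk (22137), the spindle checkpoint kinase also known as MPS1, had 4577 and 2215 bp at chr9:83858163-83862739. Nrg1 (211323), a ligand of ERBB receptors, had 4395 and 2407 bp at chr8:32248049-32252443. The remaining 2 of the 8 widest were on chromosome 12 outside genes (chr12:26686982-26691328, 4347 and 2069 bp) and in Nf1 (18015), which encodes the RAS inhibitor neurofibromin (chr11:79544877-79549190, 4314 and 2631 bp). None of these 8 had one of the used protein-coding starts within 5 kb, and the EK intervals were 0.282 to 0.641 times as wide as the wild-type ones. The EK midpoints of the Capzb, Myt1 and Tanc2 peaks lay more than 500 bp from the wild-type midpoints.

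Lost peaks reached the same widths. The widest of the whole wild-type list, at 5524 bp, lay in Enpp6 (320981), a choline phosphodiesterase gene, at chr8:47004292-47009815, and the lost peak of 5381 bp beside it lay in the same gene. All 10 wild-type peaks in Enpp6 were lost. Next were Lyst (17101), a regulator of lysosome traffic (chr13:13665514-13669940, 4427 bp), Mapk8 (26419), the stress kinase JNK1 (chr14:33439884-33444132, 4249 bp), and Sntb2 (20650), a syntrophin (chr8:106966982-106971218, 4237 bp). The others of the 8 widest were in Pkd2l1 (3955 bp), Ammecr1 on the X (3951 bp) and Cacul1 (3686 bp). Of these 8, the Mapk8 and Pkd2l1 peaks lay within 5 kb of a used protein-coding start, at 3026 and 1534 bp. A wide wild-type interval was therefore no guarantee of an EK peak.

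Of the 5352 protein-coding genes with a wild-type peak in their span, 1613 (30.1%) held at least 1 kept peak. In 787 genes every peak was kept, but only 68 of these had 2 or more peaks. The 6 genes named for their number of wild-type peaks (the last of them tied with others) were long and differed in how many were kept. Macrod2 (72899), an ADP-ribose hydrolase gene with a span of 1998 kb, kept 1 of 20, Lrmda (76633), named for melanocyte differentiation, 1 of 16 and the exocyst subunit gene Exoc4 (20336) 1 of 15. Ctnna3 (216033), an alpha-catenin, kept 6 of 17, its relative Ctnna2 (12386) 3 of 14 and the neurodevelopmental gene Auts2 (319974) 4 of 16. Among the 36 genes with 10 or more wild-type peaks, 15 kept none, against 3739 of all 5352 genes, most of which had fewer peaks. The median of the kept shares of these 36 genes was 6.90% (range 0 to 75%). It is a median over genes, so it is not directly comparable with the 17.7% counted over all peaks.

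A few genes stood at the other end, and these were chosen after their values were seen. Bbs9 (319845), a subunit of the BBSome of primary cilia, kept 9 of 12 peaks, the most of any gene. Its kept peaks were 236 to 2779 bp wide, and the 3 lost ones 622, 1278 and 1462 bp. Some of the kept peaks nearly touch, as chr9:22488386-22488709 and chr9:22488724-22489241 do, and chr9:22646695-22646930 and chr9:22646960-22647455. The 9 kept peaks therefore need not be 9 separate sites, and counts per gene were not repeated with close peaks merged. Nfib (18028), a transcription factor of the nuclear factor I family, kept all 5 of its peaks, with 1220, 971, 783, 635 and 506 bp in wild type and 437, 403, 801, 613 and 506 bp in EK. They are part of the run of 6 kept peaks on chromosome 4 (chr4:82343113-82509629). Syn3 (27204), a synapsin, kept 5 of 9, and Nrg1 kept 5 of 11.

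**Figure D5:**
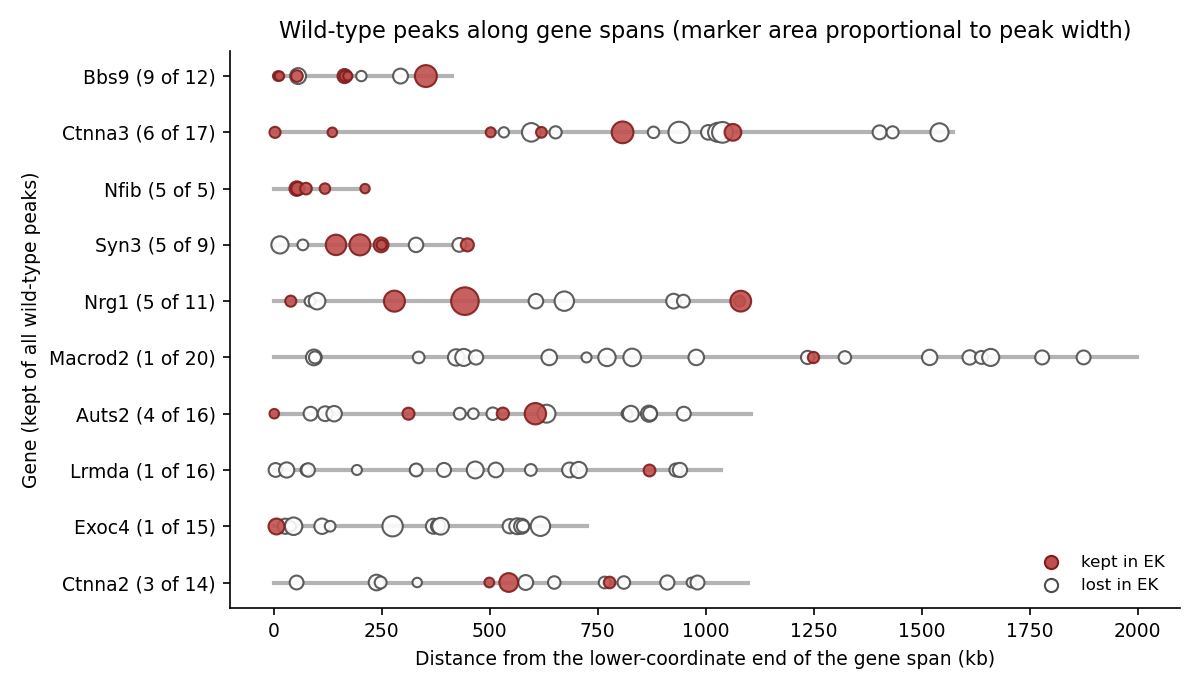
Wild-type H3K4me3 peaks along the spans of 10 genes, those with most kept and those with most wild-type peaks, at their distance in kb from the lower-coordinate end of the span. Filled markers were kept in EK and open markers lost, with marker area proportional to wild-type width; Bbs9 kept 9 of 12 and Macrod2 1 of 20.

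Gene lists were set against the 17.7% kept over all peaks. Of 40 matched genes of meiotic recombination and synapsis, 12 had a wild-type peak and 3 a kept one, with 3 of 17 peaks kept (17.6%, 6.19 to 41.0%; 28.0% standardised for width). The kept ones were in Hormad1, an axis protein (502 bp in both genotypes), Iho1, a partner of HORMAD1 in break formation (524 bp in wild type, 238 bp in EK), and Sycp2, a lateral element component of the synaptonemal complex (1539 and 317 bp). Tex11, an X-linked meiotic gene, lost all 4 of its peaks, and Hsf2bp, which acts with BRCA2, lost both. So did 4930432K21Rik, also named Brme1, whose product binds that of Hsf2bp. Iho1 and Sycp2 were named after their values were seen.

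Of 28 genes for PRDM9 partners and for enzymes and readers of H3K4 and H3K36 methylation, 11 had a wild-type peak and 3 a kept one, with 3 of 28 peaks kept (10.7%, 3.71 to 27.2%; 16.7% standardised for width). Kmt2c, an H3K4 methyltransferase, kept 1 of 8 (695 bp in wild type, 447 bp in EK). Kdm2a, an H3K36 demethylase, kept 1 of 3, the H3K36 demethylase gene Kdm4a, named after its values were seen, kept its only one (956 and 258 bp), and Cdyl, a chromodomain protein that has been found with PRDM9, lost all 4. Nsd1, an H3K36 methyltransferase, lost all 3. Of 28 spermatogenesis genes, 11 had a wild-type peak and 3 a kept one, with 6 of 24 peaks kept (25%, 11.9994 to 44.9%). Tdrd1, a Tudor protein of the piRNA pathway, kept 3 of 4 and Tex14, a protein of germ cell bridges, 2 of 4. Zbtb16, a factor of spermatogonial stem cells, kept 1 of 5, and the receptor gene Kit lost all 4. The intervals of these 3 short lists all include the overall share.

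The list of long cell-adhesion and synaptic genes was the one whose interval lay below the overall share. All 49 had a wild-type peak, and 37 of their 399 peaks were kept (9.27%, 6.80 to 12.5%; 10.5% standardised for width), in 18 genes. The list was chosen with earlier results of these data known, and it does not hold every long synaptic gene. Syn3, which kept 5 of 9 peaks, and Tanc2, which kept 2 of 9, are not on it. The listed genes are long, with a median span of 1135 kb. Over all wild-type peaks the kept share was 15.8% in protein-coding spans beyond 5 kb of a start and 13.5% (12.8 to 14.4%) beyond 100 kb, and this last interval also lies above the list's. The part of distance from starts in the list's share was not tested. Macrod2, Ctnna3, Auts2 and Ctnna2, described above, are on this list. Chosen after the values were seen, Lrp1b, a receptor of the LDL family, kept 0 of 14, which allows a share of up to 21.4%.

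Both lists are limited to known PRDM9-dependent sites, so a low number of EK peaks without a wild-type peak was in part fixed by construction. Such peaks were few, 40 of 3307 (1.21%, 0.890 to 1.64%), and spread over 18 chromosomes with at most 4 on any one. They were narrow, with a median of 506.5 bp (141 to 892 bp) against 667 bp for EK peaks at wild-type peaks. Their nearest wild-type peak lay a median of 35549.5 bp away and within 1 kb in 1 case. A protein-coding span held 18 of the 40 (45%), and of the 38 on chromosomes with start sites 1 was within 1 kb and 9 (23.7%) within 5 kb of a protein-coding start, against 8.40% of wild-type peaks within 5 kb. Among kept wild-type peaks, which also have an EK peak, that share was 19.0% (601 of 3168). The widest, of 892 bp, was at chr9:109167117-109168008, outside annotated genes. The next were at chr13:31548247-31549006 (760 bp) and chr5:97369270-97370023 (754 bp), also outside genes, at chr14:18466249-18466992 in the long non-coding gene Gm32587 (744 bp) and at chrX:102910085-102910789 in Dmrtc1a (705 bp).

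Wild-type double-marking gave a further context. Peaks that were also in the authors' wild-type list of peaks with both H3K4me3 and H3K36me3 were kept at 11.7% (10.9 to 12.5%, 805 of 6892), and H3K4me3-only peaks at 21.3% (20.6 to 22.1%, 2457 of 11535). Standardised for width these shares were 15.6% and 17.4%, and double-marked peaks were wider (median 1507 against 941 bp).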

How the data were processed

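Peak lists for H3K4me3 in wild-type and EK spermatocytes were used as deposited, with the wild-type list of double-marked peaks as an annotation. Per the deposited description, the authors mapped reads to mm10 and listed peaks detectable at sites with known PRDM9-dependent H3K4me3; the wild-type list was taken over from an earlier series, and the EK signal track merged both libraries. Per the submitters' processing notes, the tools were Trimmomatic, BWA 0.7.9a and MACS 1.4, with roles not given in the sources used here. Values are peak borders in bp, with no score or read count, so depth is unknown.

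Overlaps, widths and shares were computed with pandas 2.3.3 and SciPy 1.17.1 in Python 3.11.15, and the code was tested on simulated lists. Differences carry Newcombe intervals, and medians an order-statistic interval. Width standardisation averaged shares over 5 classes of wild-type width, weighted as in the whole list. Gene spans (49939 genes) and start sites came from RefSeq GRCm38.p6, and chromosome lengths were the farthest coordinate seen. Distances run from the peak border to the nearest start. Coordinates are mm10, counted from 1.

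Members, gene lists and rules were chosen with earlier results of these data known. Named peaks were the 8 widest kept, the 8 widest lost, the 5 widest EK peaks without a wild-type peak, the 5 widest kept and 3 widest lost with a start inside, the 6 genes with most wild-type peaks, and up to 4 genes per list. Alternatives were 50% overlap of the shorter peak, a limit of 500 bp between midpoints, wide peaks, merging within 500 bp, autosomes, genes of any biotype, other distance limits and width standardisation. In the gene lists, symbols were matched by name or synonym, and 1 symbol in each of 2 lists was not matched. Lists of the EP allele and of EK double-marking were not used here.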

Additional observations from a re-analysis of the deposited data

How the results depend on the processing

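Over the 9 main values and their 64 alternatives, 54 stayed within the interval of the reported value, 9 moved outside it and 1 changed sign. Restriction of both lists to peaks no narrower than the median moved most: the kept share was 7.87%, the difference between protein-coding spans and the space outside genes -0.189 points, the difference near starts 3.34 points, the share of EK peaks without a wild-type peak 56.1% and the width ratio 0.498. In that setting narrow wild-type peaks leave the list, so EK peaks over them count as unmatched by construction. Wide wild-type peaks matched only by a narrow EK peak likewise count as lost. With midpoints at most 500 bp apart, 3.45% of EK peaks had no wild-type peak. The difference near starts was 20.3 points with genes of any biotype and 17.9 points when standardised for width. Beyond 5 kb of a start, an alternative chosen after seeing the data, the kept share was 15.8% and the difference for protein-coding spans 0.631 points. Chromosome shares stayed within their intervals in 96 of 119 cases. The lowest chromosome was 18 in each setting that included it, and the highest was 10 in 3 settings (as reported, with 50% overlap and with merging), 8 with midpoints, with standardisation and beyond 5 kb, and X among wide peaks. Of the named peaks' 48 statuses under the other overlap rules, 44 were unchanged, and the peaks in Capzb, Myt1, Tanc2 and Rgs19 had no EK midpoint within 500 bp. No paired analysis was possible because each genotype has 1 list without replicate numbers, so no replicate could be left out either. With 1 list per genotype and no read counts, loss of the mark and a signal below detection cannot be told apart.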
